A study of Mus musculus with 16 samples.

Results

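The mitochondrial ribosomal protein genes are the genes whose symbol starts with Mrpl or Mrps followed by a digit. Probe sets (groups of short probes for a transcript) were taken where the array annotation gave them exactly 1 symbol of that form, and each gene was represented by its probe set with the highest mean over 16 arrays. This gave 76 genes, 47 with an Mrpl symbol and 29 with an Mrps symbol, among 18194 genes with 1 symbol in the series, from 156 probe sets. All 76 passed the filter on dim genes, as did 12154 genes in all.

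The RNA was from perfused mouse liver, at an age of 3 to 6 months. The mice were Perk knockout (Perk-/-, deleted by Cre driven from the albumin promoter, which is active in hepatocytes) or wild-type littermates (Perk+/+). Perk, gene symbol Eif2ak3, is the endoplasmic reticulum kinase that phosphorylates the translation initiation factor eIF2 alpha. Livers were perfused in a single pass with tBuHQ or without it, at 0.1 mM CaCl2. tBuHQ is a di-tert-butylhydroquinone, for which the labels name different isomers, and it inhibits calcium uptake into the endoplasmic reticulum. One fraction was polysome RNA, that of mRNAs loaded with several ribosomes, collected from sucrose gradients of 20 to 47%, and the other was unfractionated RNA of the lysate. The 8 groups, with 2 arrays each and RNA pooled from 2 livers on each array, were tBuHQ-perfused and untreated Perk knockout and tBuHQ-perfused and untreated wild-type livers, each as polysome and as unfractionated RNA. Arrays within a group are named as biological replicates in the labels, which leave unsaid whether polysome and unfractionated arrays with the same number share livers.

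The mitochondrial ribosome makes the few respiratory chain proteins that mitochondrial DNA encodes. Its RNAs come from mitochondrial DNA, but all of its proteins are encoded in the nucleus, translated on cytosolic ribosomes and imported. Some belong to families shared with bacterial ribosomes and others have no bacterial counterpart. Hepatocytes are rich in mitochondria.

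Promoters of these genes are known to bind the nuclear factors GABPA (an ETS factor, also called NRF2), NRF1 and YY1. RefSeq promoter windows (GRCm38.p6, 250 bases before to 50 after the start) were found for 67 of the 76 genes. Searching both strands, CCGGAAG, the core bound by GABPA and other ETS factors, was in 25 of the 67 windows (37.3%), against 9.93% of 27025 windows of all genes. The YY1 motif AAGATGGC was in 12 (17.9%), against 3.19%, and the NRF1 motif CGCATGCGC in 7 (10.4%), against 1.95%. At least 1 of these motifs was in 37 of the 67 (55.2%), against 14.1% of all windows. TATAAA was in 5 (7.46%), against 15.7%. The median GC content was 58% in the windows of these genes and 52.75% over all. A match describes letters only, and no binding was measured here. Shown are 3 windows of 170 bases that hold an ETS or NRF1 match, from genes named in the comparisons below, with the match in capitals.
Mrps22 (chr9:98601660-98601829, minus strand, ETS): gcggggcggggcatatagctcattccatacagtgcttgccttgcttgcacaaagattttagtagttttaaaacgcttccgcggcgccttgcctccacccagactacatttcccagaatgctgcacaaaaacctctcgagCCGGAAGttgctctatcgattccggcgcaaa
Mrpl10 (chr11:97041432-97041601, plus strand, NRF1): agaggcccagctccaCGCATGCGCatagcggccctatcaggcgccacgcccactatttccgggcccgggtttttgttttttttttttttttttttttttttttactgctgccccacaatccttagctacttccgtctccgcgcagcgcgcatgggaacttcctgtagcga
Mrpl22 (chr11:58171514-58171683, plus strand, ETS then NRF1): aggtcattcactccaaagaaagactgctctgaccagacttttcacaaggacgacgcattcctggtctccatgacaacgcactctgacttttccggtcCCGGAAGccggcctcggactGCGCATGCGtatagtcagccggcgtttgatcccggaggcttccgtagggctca

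Values are deposited signals on a linear scale, which the authors had scaled so that every array had a trimmed mean of 150. Differences are of log2(signal + 16), from a limma fit over all 16 arrays and 12154 genes, and a gene passed the test at a Benjamini-Hochberg adjusted p under 0.05. The mitochondrial ribosomal protein genes were bright: their mean signals ran from 149 to 3787 with a median of 984. The lowest signal of any of them on any array was 79.9, against at most 15.1 for a control transcript absent from mouse RNA. Eif2ak3 gave 26.3 to 49.2 on the knockout arrays and 46.1 to 216 on the wild-type arrays (log2 difference -1.31, SE 0.17, adjusted p 0.0106). The summed signal of 11 hepatocyte markers was 82471 to 146648 over the arrays, and none was at the level of the absent control.

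Some arrays stood apart. The 3 unfractionated arrays with the highest upper quartile of signals were the 2 from untreated wild-type livers and replicate 1 from knockout livers with tBuHQ. Over the tested genes that knockout array correlated at 0.9799 and 0.9785 with the 2 untreated wild-type arrays. With replicate 2 of its own group it correlated at 0.9662. On the second tBuHQ wild-type polysome array the 3'/5' ratio of Gapdh probes, a measure of RNA integrity, was 5.60, against 0.735 to 0.859 on the other arrays. A second deposited table held z scores of 18697 probe sets, and each of its 16 columns matched by value an array of the same genotype and fraction but of the opposite treatment to the one its column name gives, 4 of them with the other replicate number. By those names every tBuHQ difference below would change sign, and values given for tBuHQ or untreated livers would belong to the other treatment. Differences between fractions or genotypes pooled over all conditions would not. The sample labels are used here.

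In polysome against unfractionated RNA, pooled over genotype and treatment (8 arrays against 8), the mRNAs of most mitochondrial ribosomal proteins stayed near the middle of all genes, and a small group differed in both directions. Of 76 genes, 7 fell and 2 rose, while 26.7% of all genes passed, 14.8% higher and 11.9% lower. The median log2 difference was -0.04, against -0.02 over all genes, and 33 genes were positive. For 35 genes another probe set was compared, and 18 of these genes had one of the opposite sign. The 8 polysome arrays lay wholly above the unfractionated arrays for 0 of the 76 and wholly below for 0, against 2.22% and 1.44% of all genes. Single arrays moved the count of calls: it was 5 without replicate 1 of untreated wild-type unfractionated RNA, replicate 2 of untreated knockout polysomes or replicate 1 of tBuHQ knockout polysomes, and 15 (4 rises and 11 falls) without replicate 1 of tBuHQ wild-type polysomes.

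**Figure D1:**
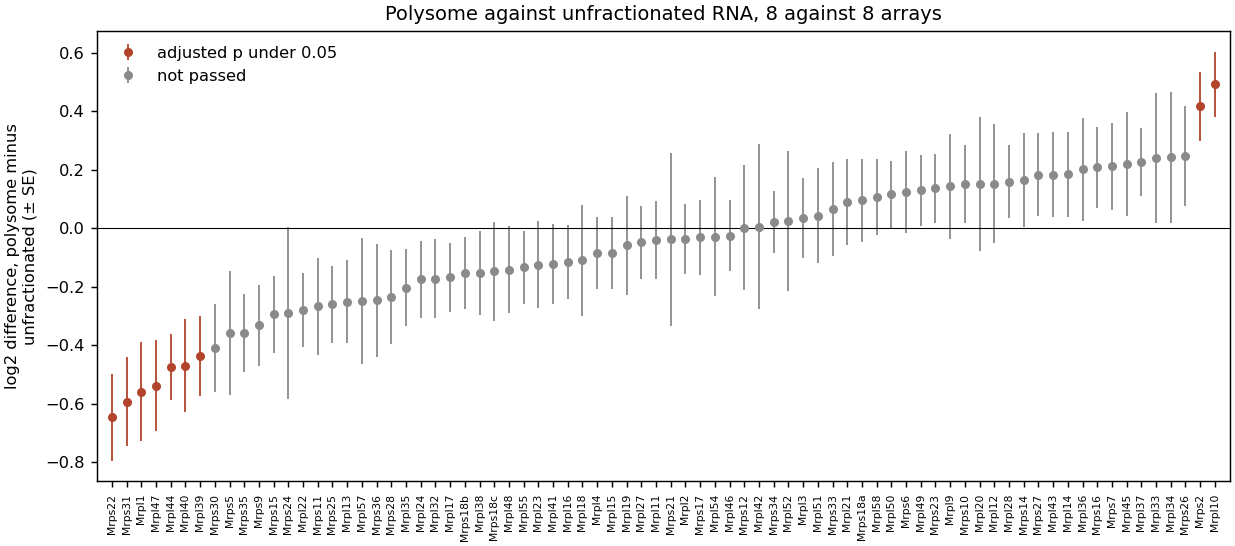
Log2 difference of polysome minus unfractionated RNA for each of the 76 genes, ordered by value, with the standard error of the limma fit. The 9 genes that passed the test are red: Mrps22 lies lowest at -0.65 and Mrpl10 highest at 0.49.

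Mrps22, a small-subunit protein with no bacterial counterpart, whose mutations impair mitochondrial translation in humans, had signals of 837, 1054 and 1730 (lowest, median and highest) in polysome RNA, against 1266, 1821 and 2069 in unfractionated RNA. The ranges overlapped through 1 wild-type polysome array of each treatment, at 1567 untreated and 1730 with tBuHQ, while no knockout array overlapped with an unfractionated one. Mrps22 fell by 0.65 (SE 0.15, adjusted p 0.0049), a 1.57-fold lower signal, the largest fall among the 76. Mrps31, also a small-subunit protein without a bacterial counterpart, had 661, 900 and 1620 in polysome RNA, against 1025, 1576 and 1902 in unfractionated RNA. It fell by 0.59 (SE 0.15, adjusted p 0.0094). Its 4 knockout polysome arrays were at 661 to 1068, and its wild-type polysome arrays spread from 775 to 1620. Without any single array both genes kept their direction, and the fall of Mrps22 passed in all 26 alternative settings while that of Mrps31 passed in 25. With the mean of its probe sets, the second of which was dim, Mrps31 gave -0.29 (limma adjusted p 0.119).

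Mrpl44, a large-subunit protein with a fold like that of RNase III, had 611, 691 and 904 in polysome RNA, against 771, 1046 and 1105 in unfractionated RNA. Of its 8 polysome arrays 6 lay below every unfractionated one. It fell by 0.48 (SE 0.11, adjusted p 0.0061), and its 4 probe sets all lay between -0.37 and -0.59. Mrpl1, of the stalk at which tRNA leaves the ribosome in bacteria, had 257, 422 and 558 in polysome RNA, against 400, 626 and 730 in unfractionated RNA, and fell by 0.56 (SE 0.17, adjusted p 0.0239), but its other probe set past the filter gave 0.14. Mrpl47, at the exit of the peptide tunnel, had 380, 533 and 807 in polysome RNA, against 556, 777 and 1098 in unfractionated RNA, and fell by 0.54 (SE 0.16, adjusted p 0.0187). Its second, dim probe set gave 0.39. With the mean of all probe sets Mrpl1 gave -0.056 and Mrpl47 -0.034, and the falls of Mrpl1 and Mrpl47 passed in 18 and 22 of the 26 alternatives. Mrpl40 and Mrpl39, which the naming rule did not take and which are named because they complete the 7, fell by 0.47 (adjusted p 0.0394) and by 0.44 (adjusted p 0.0272). Both are large-subunit proteins with no bacterial counterpart.

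Mrpl10, which anchors the stalk that binds translation factors, had 629, 947 and 1165 in polysome RNA, against 571, 662 and 748 in unfractionated RNA. The lowest polysome value was that of the second tBuHQ wild-type array, the one with the high Gapdh ratio, and the next was 864, above every unfractionated array. Mrpl10 rose by 0.49 (SE 0.11, adjusted p 0.0042), and the rise passed in all 26 alternatives. Mrps2, of the bacterial S2 family in the small subunit, had 602, 719 and 951 in polysome RNA, against 481, 548 and 652 in unfractionated RNA. It rose by 0.42 (SE 0.12, adjusted p 0.0166), passed in 25 of 26 alternatives, and its second probe set gave 0.39.

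Besides Mrps22, Mrpl44 and Mrps2, which passed and are given above, the following genes were also named for well-known roles. Mrpl12, the stalk protein that recruits translation factors and also binds the mitochondrial RNA polymerase, gave 0.15 (SE 0.20), Mrpl11, at the base of that stalk, -0.04 (SE 0.13), and Mrpl3, near the peptidyl transferase centre, 0.03 (SE 0.14). Mrps12, part of the decoding centre, gave 0.003 (SE 0.22), and Mrps34, whose mutations impair mitochondrial translation in humans, 0.02 (SE 0.11). Mrps7 and Mrps16 gave 0.21 each (SE 0.15 and 0.14) and Mrps18b gave -0.15 (SE 0.12). Mrps30, which carries a small-subunit symbol but sits in the large subunit, gave -0.41 (SE 0.15, adjusted p 0.059). None of these passed. Large-subunit proteins of bacterial families had 1 rise and 2 falls among 29, those without a bacterial counterpart 3 falls among 17. In the small subunit 1 of 16 with a bacterial family rose and 2 of 9 without one fell. Over all genes 14.8% rose and 11.9% fell, and whether these classes differ from that or from each other was not tested.

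In the lists of genes around the mitochondrial ribosome some genes also passed, in both directions. Over all genes 26.7% passed in this comparison, 14.8% higher and 11.9% lower, and whether any list differs from that was not tested. Among 31 assembly and rRNA-modifying factors 2 rose and 3 fell, with Mterf4, a termination-family protein that works with the rRNA methyltransferase Nsun4, at -1.06 (SE 0.18) and Nsun4 itself at 0.43 (SE 0.14). Among 19 translation factors 1 rose and 3 fell, with Gfm1, the elongation factor that drives translocation, at -0.48 (SE 0.10) and Tufm, the factor that delivers aminoacyl-tRNA, at -0.54 (SE 0.18). Of 17 mitochondrial aminoacyl-tRNA synthetases, Yars2 (-0.55, SE 0.12) and Iars2 (-0.50, SE 0.12) fell. Among 14 transcription genes and nuclear regulators 3 rose and 1 fell. Those that rose were Ppargc1b (0.68, SE 0.15), Tfb2m (0.67, SE 0.13) and Gabpa (0.43, SE 0.14), and Myc fell (-0.47, SE 0.15). Gabpa is the ETS factor whose core motif is shown above, and a link to that motif was not tested. Of 5 genes without an Mrp symbol for proteins in or bound to the mitochondrial ribosome, 1 fell. This was Oxa1l, for the insertase that docks at the tunnel exit and is not itself a ribosomal protein, at -0.50 (SE 0.11).

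Cytosolic ribosomal protein mRNAs behaved otherwise. Of 46 tested, chosen by their Rpl, Rplp, Rps and Rpsa symbols with Fau added, 43 fell, with a median of -1.0. There was no overlap between fractions for 27, against 1.44% of all genes wholly lower and 2.22% wholly higher. Of 72 nuclear-encoded oxidative phosphorylation genes 9 fell and 0 rose, against 11.9% and 14.8% of all genes, with a median of -0.14. The mitochondrial ribosomal genes spread around 0, as the plot of the lists shows. Whether the lists differ from each other was not tested. Markers of most cell types were lower in polysome RNA as well: 8 of 11 of hepatocytes fell (1 rose), 10 of 10 of macrophages, 6 of 8 of stellate cells, 3 of 10 of endothelium and the 1 tested of erythroid cells, while 0 of 11 acinar markers passed. Summed hepatocyte markers were 82471 to 109174 in polysome RNA, against 107387 to 146648 in unfractionated RNA. Summed macrophage markers were 1013 to 1584 in polysome RNA, against 3025 to 4917 in unfractionated RNA. Here polysome RNA is compared with RNA of the lysate, so a lower marker is a lower signal in polysomes relative to the lysate. It is not a measure of how many cells of a type were present. Whether the livers behind the arrays of the fractions differed in cell types was not tested, nor was the part of these cells in the differences.

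**Figure D2:**
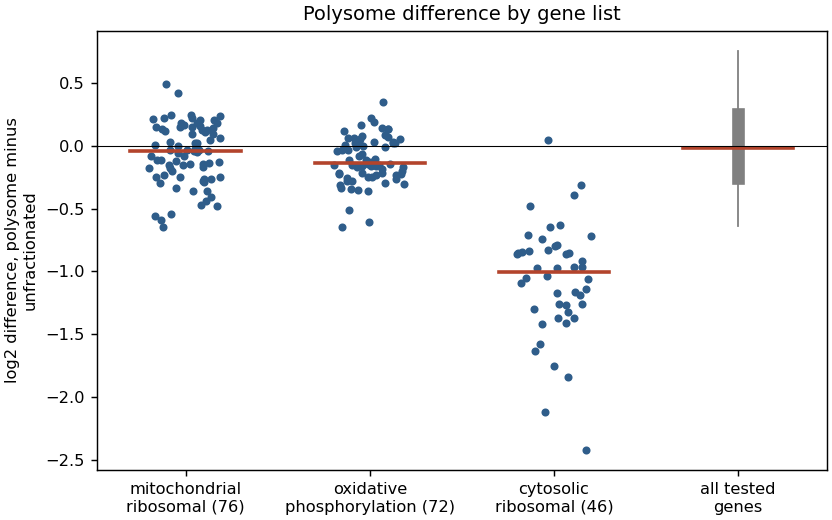
Log2 difference of polysome minus unfractionated RNA for 76 mitochondrial ribosomal, 72 oxidative phosphorylation and 46 cytosolic ribosomal genes (points, red line at the median), beside the 5th to 95th percentile (thin bar) and quartiles (thick bar) of all tested genes. The medians are -0.04, -0.14 and -1.0.

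Within single conditions the same comparison rested on 2 arrays against 2. In untreated wild-type livers 0 of 76 genes passed (0.592% of all genes passed), although 29 lay higher on both polysome arrays, against 20.3% of all genes, and the median was 0.28 (0.14 without replicate 2 of the unfractionated arrays, 0.45 without replicate 1). With tBuHQ, wild-type polysomes showed 4 genes that fell and 0 that rose, while 15.7% of all genes passed, 4.85% lower, with a median of -0.37, and 31 lay lower on both polysome arrays, against 23.3% of all genes. In untreated knockout livers 1 gene fell (9.35% of all genes passed, 3.53% lower, median -0.10), and in tBuHQ-perfused knockout livers 0 passed (0.658%, median -0.01). These counts used the same 12154 genes and fit.

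The genes that fell in wild-type polysomes with tBuHQ were Mrpl57, Mrps11, Mrps15 and Mrpl4. Mrpl57, a short large-subunit protein, had 464 and 1011 in polysome RNA, against 1971 and 1602 in unfractionated RNA (log2 difference -1.35, SE 0.43, limma adjusted p 0.0465). Mrps11, on the platform of the small subunit, had 462 and 172 in polysome RNA, against 678 and 606 in unfractionated RNA (-1.13, SE 0.33, limma adjusted p 0.0317). Mrps15, of the bacterial S15 family, had 1037 and 963 in polysome RNA, against 1890 and 1750 in unfractionated RNA (-0.85, SE 0.26, limma adjusted p 0.0378). Mrpl4, a globular protein whose loop reaches the tunnel in bacteria, had 701 and 412 in polysome RNA, against 981 and 922 in unfractionated RNA (-0.80, SE 0.25, limma adjusted p 0.0393). All 4 had both polysome arrays below both unfractionated arrays, and the lowest Mrps11 and Mrpl4 values were on the array with the high Gapdh ratio. Leaving out the first or the second of these polysome arrays gave 6 falls and 1 rise, and 9 falls and 0 rises, and leaving out either tBuHQ unfractionated array gave 0 calls. Without replicate 2 of these polysome arrays, the one with the high Gapdh ratio, Mrps11 was at -0.46 and Mrpl4 at -0.43 and neither passed, and without replicate 1 Mrps11 was at -1.80 and Mrpl57 at -0.80, which did not pass. With the mean of all probe sets Mrpl57 gave -0.73, Mrps11 -0.64 and Mrps15 -0.45, and none of these passed. Over 25 alternatives Mrps11 passed in 21, Mrps15 and Mrpl4 in 16 each and Mrpl57 in 11. In untreated knockout livers Mrps31 had 719 and 661 in polysome RNA, against 1719 and 1659 in unfractionated RNA (-1.27, SE 0.30, limma adjusted p 0.0172), a gap wider than the spread within either pair, and leaving out any of these 4 arrays gave 0 calls. With the mean of its probe sets Mrps31 gave -0.57, which did not pass.

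**Figure D3:**
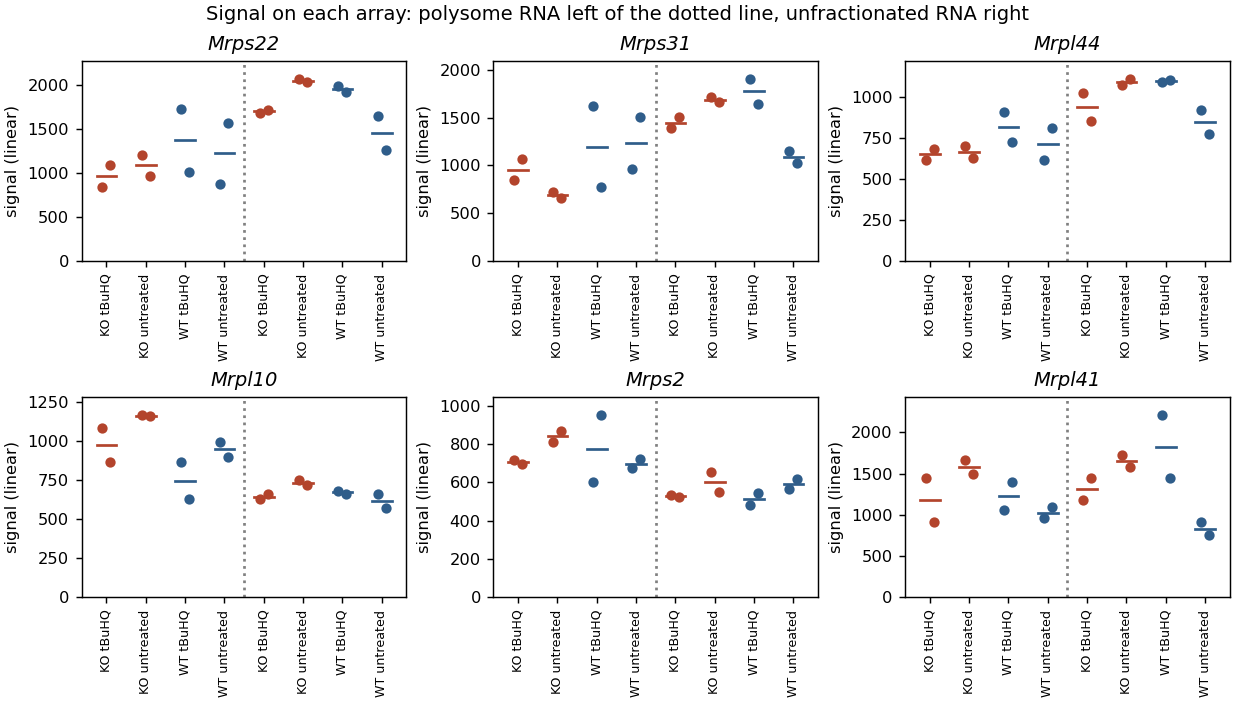
Signal on each array (points, 2 per group, bar at their mean) for Mrps22, Mrps31, Mrpl44, Mrpl10, Mrps2 and Mrpl41, with polysome groups left of the dotted line and unfractionated groups right. Mrps31 is at 661 and 719 in untreated knockout polysomes, against 1659 and 1719 in the unfractionated RNA of the same condition.

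Between genotypes, unfractionated RNA of untreated livers showed a shared direction with few genes past the test. Of 76 genes 75 were higher in knockout livers, with a median of 0.63, against -0.03 over all genes. These are signs of the brightest probe set. For 35 genes another probe set was compared, and 11 of these genes had one of the opposite sign. Both knockout arrays lay above both wild-type arrays for 68 genes, against 29.8% of all genes. The test called 3 genes higher and 0 lower, against 7.0% of all genes called, 0.716% higher. The medians were 0.50 for oxidative phosphorylation and 0.42 for cytosolic ribosomal genes.

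Mrpl41, a large-subunit protein with no bacterial counterpart, had 1723 and 1582 in knockout livers, against 906 and 747 in wild-type livers (0.99, SE 0.27, limma adjusted p 0.0421). Mrpl2, which lies close to the peptidyl transferase centre, had 1731 and 1516 in knockout livers, against 988 and 730 in wild-type livers (0.92, SE 0.24, limma adjusted p 0.034). Mrpl22, which lines the peptide tunnel, had 2440 and 1965 in knockout livers, against 1346 and 1032 in wild-type livers (0.88, SE 0.25, limma adjusted p 0.0492). Both pairs were apart for each of the 3 genes. The 25 alternatives left these calls in place 15, 18 and 7 times, and leaving out any 1 of the 4 arrays compared gave 0 calls. Leaving out other arrays, which only changes the shared error estimate, gave from 0 (without replicate 2 of untreated knockout polysomes) to 13 calls (without either tBuHQ wild-type polysome array).

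Other measures moved with this comparison. Both untreated wild-type unfractionated arrays were among the 3 that stood apart, and those 3 had the lowest medians of the mitochondrial ribosomal genes in unfractionated RNA, at 698 to 882, against 962 to 1220 on the other 5. Summed stellate cell markers were 2029 to 2076 in knockout livers, against 4641 to 5195 in wild-type livers, and 6 of 8 fell. Summed endothelial markers were 900 to 1052 in knockout livers, against 2122 to 2452 in wild-type livers, and 3 of 10 fell. Summed pancreatic acinar markers were 229 to 3378 in knockout livers, against 155 to 190 in wild-type livers, and 0 of 11 passed. The high knockout value came from replicate 1 alone, with Cpa1 at 283 there and 3.16 on replicate 2. In bulk RNA fewer cells of a type and less RNA per cell cannot be told apart. The part of these markers in the result was not tested, and the arrays that stood apart cannot be told apart from the untreated wild-type group.

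**Figure D4:**
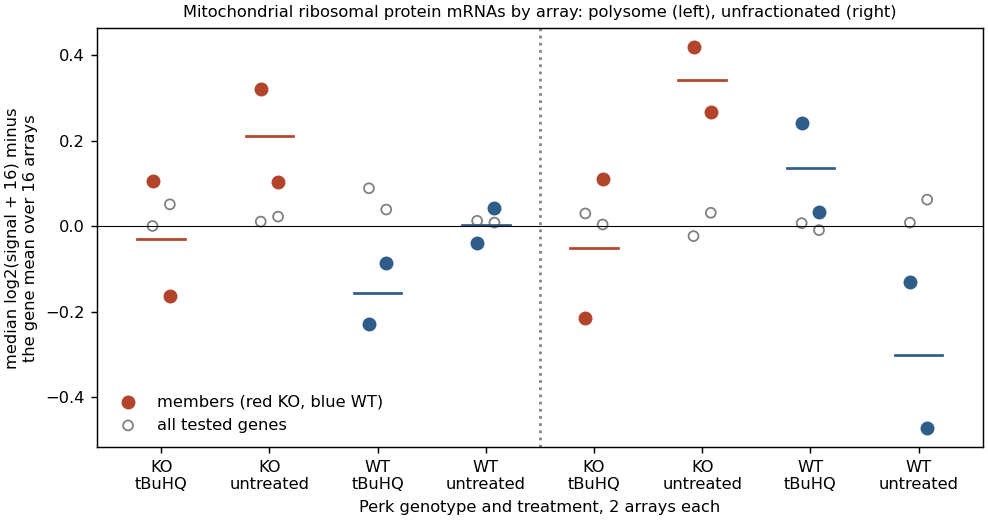
Median over the 76 genes of log2(signal + 16) minus each gene's mean over 16 arrays, for each array (filled points, bar at the group mean), with the median of all tested genes (open circles). Untreated unfractionated RNA has the highest group mean in knockout livers, with arrays at 0.42 and 0.27, and the lowest in wild-type livers, with arrays at -0.13 and -0.47.

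In the other genotype comparisons 0 of 76 genes passed. In untreated polysome RNA the median was 0.20 (62 positive), in tBuHQ polysome RNA 0.14 (50 positive) and in tBuHQ unfractionated RNA -0.19 (8 positive), where 0.00823% of all genes passed each time. In that order 16, 17 and 20 of the 35 genes with another probe set compared had one of the opposite sign. Pooled over treatment and fraction, 71 of 76 were higher in knockout livers with a median of 0.20, against -0.01 over all genes, and 0 passed by limma (0.156% of all genes did, and 12 of the 76 had an unadjusted p under 0.05). Using only the polysome arrays, which include none of the 3 arrays that stood apart, the median was 0.18. Mrpl14, of a family shared with bacteria, gave the largest pooled value at 0.43 (SE 0.15, adjusted p 0.249), and Mrps31 the lowest at -0.17 (SE 0.15).

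For tBuHQ in unfractionated RNA the medians had opposite signs in the genotypes, with 1 gene past the test in wild-type livers and 0 in knockout livers. In wild-type livers 73 of 76 were higher with tBuHQ, with a median of 0.44, against -0.03 over all genes. On both arrays 58 lay higher, against 26.8% of all genes. Another probe set had the opposite sign for 13 of the 35 genes where 1 was compared. The median was 0.26 without replicate 2 of the untreated arrays, 1 of those that stood apart, and leaving out single arrays gave 0.26 to 0.63. Only Mrpl41 passed there, at 2208 and 1444 with tBuHQ, against 906 and 747 untreated (1.10, SE 0.27, limma adjusted p 0.0368); 4.28% of all genes passed, 0.411% higher. Its second bright probe set gave 0.97, and leaving out any of the 4 arrays compared gave 0 calls. In knockout livers 75 of 76 were lower with tBuHQ, with a median of -0.39 and 0 past the test (0.0% of all genes passed). On both arrays 52 lay lower, against 20.6% of all genes. Another probe set had the opposite sign for 14 of the 35 genes. The median was -0.20 without replicate 1 of the tBuHQ arrays, which also stood apart, and leaving out single arrays gave -0.54 to -0.20. Mrpl20, of the bacterial L20 family, gave the lowest value at -0.80 (SE 0.46), at 486 and 789 with tBuHQ, against 1137 and 1039 untreated.

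**Figure D5:**
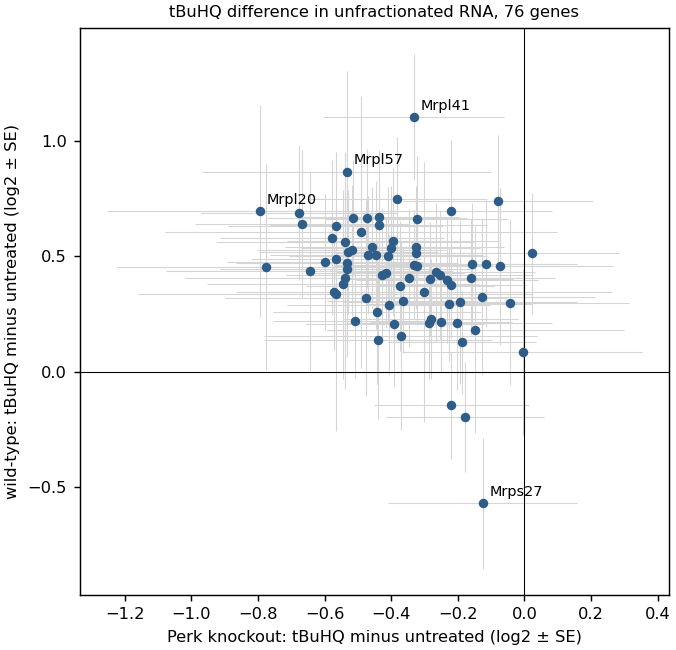
tBuHQ minus untreated log2 difference in unfractionated RNA of knockout (horizontal) and wild-type livers (vertical), with standard errors. Most of the 76 genes lie in the upper left, higher in wild-type and lower in knockout livers; Mrpl41 is highest at 1.10 in wild-type livers.

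The test of the difference, knockout change minus wild-type change, gave a median of -0.83 over the 76 genes, against 0.04 over all genes, with 74 negative. The rise in wild-type livers was shared by oxidative phosphorylation genes. Their medians relative to gene means were 0.29 and 0.11 on the tBuHQ arrays, against -0.12 and -0.40 on the untreated ones. In knockout livers they were -0.15 and 0.22 with tBuHQ, against 0.35 and 0.20 untreated. Whether the lists differ was not tested. Mrpl41 passed (-1.44, SE 0.38, limma adjusted p 0.0429), against 5.3% of all genes, 0.428% lower. These comparisons share arrays: the untreated wild-type arrays enter both the genotype and the tBuHQ difference, and 3 of the 8 arrays here stood apart. The Mrpl41 call held in 12 of 25 alternatives (-0.81 with the mean of its probe sets, which did not pass), and the count of calls ran from 0 without either untreated wild-type array to 5 without either tBuHQ wild-type polysome array. Markers of other cells moved with this comparison. Summed endothelial markers were 1335 to 2240 with tBuHQ and 900 to 1052 without in knockout livers, and 1266 to 1328 with tBuHQ and 2122 to 2452 without in wild-type livers. Summed stellate cell markers were 3610 to 5063 with tBuHQ and 2029 to 2076 without in knockout livers. In wild-type livers they were 3961 to 4257 with tBuHQ and 4641 to 5195 without. The upper endothelial and stellate sums of tBuHQ knockout livers were both on replicate 1, the array that stood apart. There the endothelial marker Ptprb was at 370 and the stellate marker Reln at 476, against 103 and 146 on replicate 2. Summed pancreatic acinar markers were 127 to 181 with tBuHQ and 229 to 3378 without in knockout livers, and 380 to 4557 with tBuHQ and 155 to 190 without in wild-type livers. Both high values came from replicate 1 alone. Cpa1 was at 283 and 3.16 on the untreated knockout arrays and at 238 and 5.84 on the tBuHQ wild-type arrays. The same test of the difference was passed by 3 of the 10 endothelial genes (Stab1, Kdr, Ptprb) and by 5 of 8 stellate cell markers, all positive, and by 1 of 11 acinar markers (Sycn), which was negative. Their part in the result was not tested.

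Polysome RNA showed no such difference between genotypes that passed. The tBuHQ median was -0.25 in knockout and -0.16 in wild-type polysomes, 0 genes passed in each (0.0% and 0.0165% of all genes), and 0 passed the test of the difference (0.0%, median -0.08). Mrpl34, a short protein of the bacterial L34 family, gave the largest fall in wild-type polysomes at -1.59 (SE 0.45, limma adjusted p 0.315), at 353 and 547 with tBuHQ, against 2122 and 867 untreated. Mrpl42 gave the largest fall in knockout polysomes at -1.16 (SE 0.56, limma adjusted p 0.865), at 2437 and 1175 with tBuHQ, against 3666 and 3955 untreated. The tBuHQ effect in polysome minus unfractionated RNA had a median of -0.66 in wild-type livers, against 0.09 over all genes. Of the 76 genes 70 were negative and 0 passed (0.107% of all genes did). Without replicate 2 of the untreated unfractionated arrays the median was -0.43. Without replicate 1 of the tBuHQ wild-type polysome arrays 3 genes fell in this comparison and 4 in the polysome comparison, and without replicate 2 the counts were 9 and 6. In knockout livers it was 0.10, with 0 passed (0.0%). Pooled over genotype and fraction, tBuHQ gave a median of -0.10 with 0 passed (0.0494%). In wild-type polysomes the array medians of oxidative phosphorylation genes were -0.47 and -0.13 with tBuHQ, against 0.03 and -0.08 untreated.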

How the data were processed

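The deposited signal of 45101 probe sets on 16 Affymetrix mouse arrays was used on a linear scale. The authors scaled each array to a 2%-trimmed mean of 150, as the values show; summarisation software was not given in the sources used here. z scores of a second deposited table served only to check labels. Of the probe sets, 34958 had 1 symbol, 932 several and 9211 none in the platform annotation, and 34754 symbols were replaced by those of the same Entrez identifier in RefSeq's GRCm38.p6 genes. Probe sets with several symbols named no gene. The brightest probe set of a gene was kept, with a filter at the 40th percentile of mean signal (16.5). Values were turned to log2(signal + 16) and tested with limma 3.58.1 in R 4.3.3 (8 group means, 8 residual degrees of freedom, intensity trend), adjusted by Benjamini-Hochberg within each of 19 contrasts. On simulated data 90% of log2 changes of 1 were recovered with 8 arrays against 8 and 20% with 2 against 2. The number of arrays limits precision, and p-values measure the spread between these pools. Members, lists and rules were chosen with earlier results of these data known. Named were all called genes where 8 or fewer passed, otherwise the 4 largest each way, the extremes where none passed, and genes with known roles. Tried were other scalings, pseudocounts, filters, probe-set means, replicate blocks and leaving out each array.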

Additional observations from a re-analysis of the deposited data

Results flagged for a closer look

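The tBuHQ difference of Mrpl41 in unfractionated RNA differed between genotypes by the test of that difference (-1.44, limma adjusted p 0.0429, with SE 0.38). On arrays it was 1184 and 1445 with tBuHQ, against 1723 and 1582 untreated, in knockout livers, and 2208 and 1444 with tBuHQ, against 906 and 747 untreated, in wild-type livers. Of the 76 genes, 41 were higher with tBuHQ on both wild-type arrays and lower on both knockout arrays of unfractionated RNA, against 9.88% of all genes; this count was not tested. Both untreated wild-type arrays and 1 of the tBuHQ knockout arrays stood apart from the others, and their part in either result was not tested.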

How the results depend on the processing

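With 2 arrays a group, most calls within single conditions changed with the setting. The fraction comparison over all arrays kept 8 to 12 called genes under other scalings, filters, pseudocounts, probe-set means and blocks, and centring each array on its median gave 1 rise and 11 falls; leaving out single arrays gave 5 to 15. Without the 3 unfractionated arrays that stood apart, chosen after seeing the data, it gave 10 calls and a median of -0.23. Quantile normalization over all arrays gave 2 calls in tBuHQ wild-type fractions and 0 for tBuHQ in wild-type unfractionated RNA, untreated genotypes and the genotype difference of tBuHQ; within each fraction it gave 0 in the same 3 comparisons. Median centring moved the median of all genes by 0.25 in the untreated genotype comparison, by 0.25 for tBuHQ in wild-type and by -0.35 in their difference, and gave 13, 1 and 3 calls; in untreated knockout fractions it gave 3. Mean of all probe sets gave 1 call in tBuHQ wild-type fractions and 0 in untreated knockout fractions, wild-type tBuHQ and the genotype difference. Without a filter the untreated genotype comparison gave 1 call and the genotype difference 0; with signals of at least 80 that genotype comparison gave 6. Same-numbered polysome and unfractionated arrays correlated at 0.08 to 0.33, and the main fit did not take the numbers as pairs. The acinar marker Cpa1 was high on replicate 1 of both fractions in untreated knockout livers (283 unfractionated, 291 polysome). It was also high on replicate 1 of tBuHQ wild-type livers (238 and 239), and at most 14.9 on the other arrays. Same-numbered arrays may therefore share livers, which was not tested, and the main fraction comparisons may leave out a pairing. The replicate block by pool (correlation 0.11) gave 11 calls between fractions and 3 in untreated knockout fractions, and the replicate block by number 9. Leaving out single arrays gave 0 to 9 calls in tBuHQ wild-type fractions, 0 to 4 in untreated knockout fractions, 0 to 1 for wild-type tBuHQ unfractionated, 0 to 6 for wild-type tBuHQ polysome, 0 to 1 for the pooled genotype, 0 to 13 for the untreated genotypes, 0 to 3 for tBuHQ polysome genotypes, 0 to 5 for the genotype difference and 0 to 9 for the fraction difference of tBuHQ in wild-type livers. Values near 0 that passed no test changed sign: between fractions Mrpl12 (-0.048 without the 3 arrays), Mrpl3 (-0.016, -0.060, -0.095 and -0.11 under quantile scaling, centring, probe-set means and without the 3 arrays), Mrps12 (-0.092 and -0.16) and Mrps34 (-0.072 and -0.12) under centring and without the 3 arrays, Mrps15 for tBuHQ in knockout livers (-0.078, centring), and between genotypes Mrpl11 (-0.021), Mrps30 (-0.037) and Mrps34 (-0.21) with polysome arrays only and Mrpl44 (0.044, probe-set means). Leaving out single arrays, medians of the 76 genes crossed 0 between fractions (-0.11 to 0.017, in untreated knockout livers -0.28 to 0.026 and in tBuHQ knockout livers -0.19 to 0.16), between tBuHQ polysome genotypes (-0.0012 to 0.28), in the polysome genotype difference of tBuHQ (-0.24 to 0.096) and in the fraction difference of tBuHQ in knockout livers (-0.048 to 0.29). Among named genes the ranges that crossed 0 included -0.010 to 0.32 for Mrpl12, -0.044 to 0.11 for Mrpl3, -0.11 to 0.029 for Mrpl11, -0.16 to 0.16 for Mrps12 and -0.020 to 0.065 for Mrps34 between fractions, -0.90 to 0.14 for Mrpl39 in untreated wild-type fractions, -0.30 to 0.35 for Mrps15, and -0.041 to 0.29 for Mrpl12, -0.024 to 0.14 for Mrps2 and -0.17 to 0.032 for Mrps22 between genotypes. The cause of these changes was not tested.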
